A study of Mus musculus with 6 samples.

Results

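The cytosolic ribosomal protein genes encode the proteins of the ribosome that works in the cytoplasm, and here their RNA was followed in the hypothalamus of aged and young mice. Members were the rows of the deposited gene tables whose symbol has the form of a large (Rpl) or small (Rps) subunit protein, together with Rplp0, Rplp1, Rplp2 and Rpsa. The rule found 85 of 18228 genes, 53 of the large and 32 of the small subunit. Of these, 77 are the main genes and 8 are paralogs, that is, further copies in the genome that carry an l-type suffix (Rpl3l, Rpl6l, Rpl7l1, Rpl22l1, Rpl32l, Rpl36al, Rpl39l and Rps27l). The rule uses symbols only and no measured value, but the family was chosen with earlier results of these data known. The gene Fau, which encodes a ribosomal protein fused to a ubiquitin-like protein, falls outside its pattern and is described with the related genes.

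Bulk poly(A) RNA of hypothalamus tissue was sequenced from 3 mice aged 22 months (aged) and 3 mice aged 12 weeks (young), 1 library a mouse. The labels name no strain, genotype, allele or treatment that would distinguish mice within or between the groups, and they give no sex. All mice had taken part in a behavioural experiment, and 3 of each age were drawn at random for sequencing. The series set out to look for transcripts that go with cognitive decline in old age. Totals ran from 17208291 to 18884403 counted reads per library. Reads of 4 genes of the Y chromosome (Ddx3y, Eif2s3y, Kdm5d and Uty) summed to between 3394 and 3617 in the aged libraries and to between 24 and 32 in the young ones, so sex and age cannot be told apart in any difference below. All 18 genes listed as marks of hypothalamic tissue had reads, and their summed levels overlapped between the ages (as CPM, reads scaled to the library total: 1650 to 1729 in aged and 1613 to 1768 in young libraries). Single genes of this list did differ, in both directions. In the edgeR test described below, 12 of the 18 had an unadjusted p under 0.05, against 26.2% of all tested genes. Past the adjusted threshold, Avp was higher (log2 fold change 0.60) and Hcrt lower (-0.82) in aged mice. The overlap of the sums therefore does not show that the sampled tissue was matched between the ages. Pituitary markers stood at 285 CPM in young library 3 and at 28.7 to 48.4 CPM in the other libraries.

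A ribosome has a small subunit, which reads the mRNA, and a large subunit, which joins amino acids. Each is ribosomal RNA dressed with ribosomal proteins, most of them present as a single copy per ribosome, and the cell makes the proteins in matched amounts. Their mRNAs are short, abundant and stable, and most begin with a C followed by a run of pyrimidines, the 5′ terminal oligopyrimidine (TOP) motif, through which mTOR signalling sets how strongly they are translated. RNA sequencing measures the level of the mRNA and neither its translation nor the number of ribosomes.

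The promoter windows of these genes hold sequence features known from the family, and a few are given to show them. RefSeq promoter windows (GRCm38.p6, 250 bases before to 50 bases after an annotated start) were matched by symbol for 64 of the 85 genes, in 76 windows. A run of 10 or more pyrimidines on the gene's strand was found in 72.4% of these windows and in 43.8% of all 32851 windows of the table. The search covered the whole window, so a run need not lie at the start of the mRNA, where a TOP motif would. The letters CGGAAGT, searched on both strands and the core of the sites of the ETS factor GABP, were in 30.3% against 6.42%. AAGATGGC, the core of the YY1 site, was in 10.5% against 2.75%, and TATAAA in 10.5% against 13.6%, both searched on both strands. In 2 windows a CGGAAGT match overlapped a pyrimidine run. Of the members with a window, CGGAAGT stood at 14 of 30 that rose with age and at 8 of the other 34, a difference that was not tested. A pyrimidine run stood at 23 of 30 and 26 of 34. The sequences below run 5′ to 3′ on the gene's strand from 60 bases before to 20 bases after the start, with CGGAAGT (or its reverse complement) and the pyrimidine runs in capitals. Rpl26 (chr11:68901506-68901585, plus strand), Rpl31 (chr1:39367791-39367870, plus strand) and Rps18 (chr17:33955646-33955725, minus strand) have both features, and in Rps18 they adjoin. Rps10 (chr17:27635225-27635304, minus strand) and Rpl28 (chr7:4792905-4792984, plus strand) have the run alone, and Rpl28 is the member with the smallest difference between the ages.
Rpl26: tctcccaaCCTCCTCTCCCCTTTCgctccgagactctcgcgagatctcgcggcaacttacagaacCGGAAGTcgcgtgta
Rpl31: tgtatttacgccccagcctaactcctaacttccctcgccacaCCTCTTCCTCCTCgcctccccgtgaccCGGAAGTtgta
Rps18: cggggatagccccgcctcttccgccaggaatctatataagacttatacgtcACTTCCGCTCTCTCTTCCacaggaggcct
Rps10: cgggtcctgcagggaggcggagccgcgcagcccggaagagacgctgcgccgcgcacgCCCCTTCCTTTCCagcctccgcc
Rpl28: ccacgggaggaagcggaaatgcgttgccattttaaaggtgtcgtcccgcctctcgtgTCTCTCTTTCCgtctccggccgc
The pyrimidine run lies before the annotated start in Rpl26 and Rpl31 and spans it in Rps18, Rps10 and Rpl28. Whether a run goes with a rise in RNA was not tested.

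Ribosomal protein mRNA took a larger share of the reads in aged than in young hypothalamus. The 85 genes together held 1.58%, 1.75% and 1.60% of all counted reads in aged libraries 1, 2 and 3 and 1.21%, 1.36% and 1.38% in young libraries 1, 2 and 3. The groups did not overlap, with means of 1.64% ± 0.0958 and 1.32% ± 0.0922 (SD, n = 3 each). Per gene length, they made up 6.36% ± 0.317 of the summed FPKM (reads scaled to gene length and library total) in aged and 5.31% ± 0.333 in young libraries. In bulk tissue, more cells of a type rich in this RNA and more of the RNA per cell cannot be told apart.

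Gene by gene, 39 of the 82 members with enough reads to test were higher in aged hypothalamus, 0 were lower and 43 did not pass the test. Across all 14702 genes tested, 3.22% were higher and 3.64% lower by the same criterion, a Benjamini-Hochberg adjusted p under 0.05 over all tested genes in edgeR's quasi-likelihood test. At an unadjusted p under 0.05, 60 members were higher, against 12.6% of all tested genes, and 0 lower. All 82 log2 fold changes were above 0, as were 49.2% of those of all tested genes; 76 were with the gene length trend described below removed. In 60 of the 82 members every aged library lay above every young one, which held for 15.5% of all tested genes. The median log2 fold change was 0.28, between 0.02 for Rpl28 and 0.56 for Rps14, against -0.0035 over all tested genes. The changes were small in size, from 1.18-fold to 1.48-fold among the members that rose. The number that passed depended on single libraries: 7 were higher without aged library 3, 14 without aged library 1, 15 without young library 1 and 19 without young library 3, with 0.64%, 1%, 0.957% and 1.22% of all genes higher in those fits. Without aged library 2 or young library 2, 37 were higher, where 6.08% and 2.09% of all genes were. The median stayed between 0.22 and 0.32 when any 1 library was left out.

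**Figure D1:**
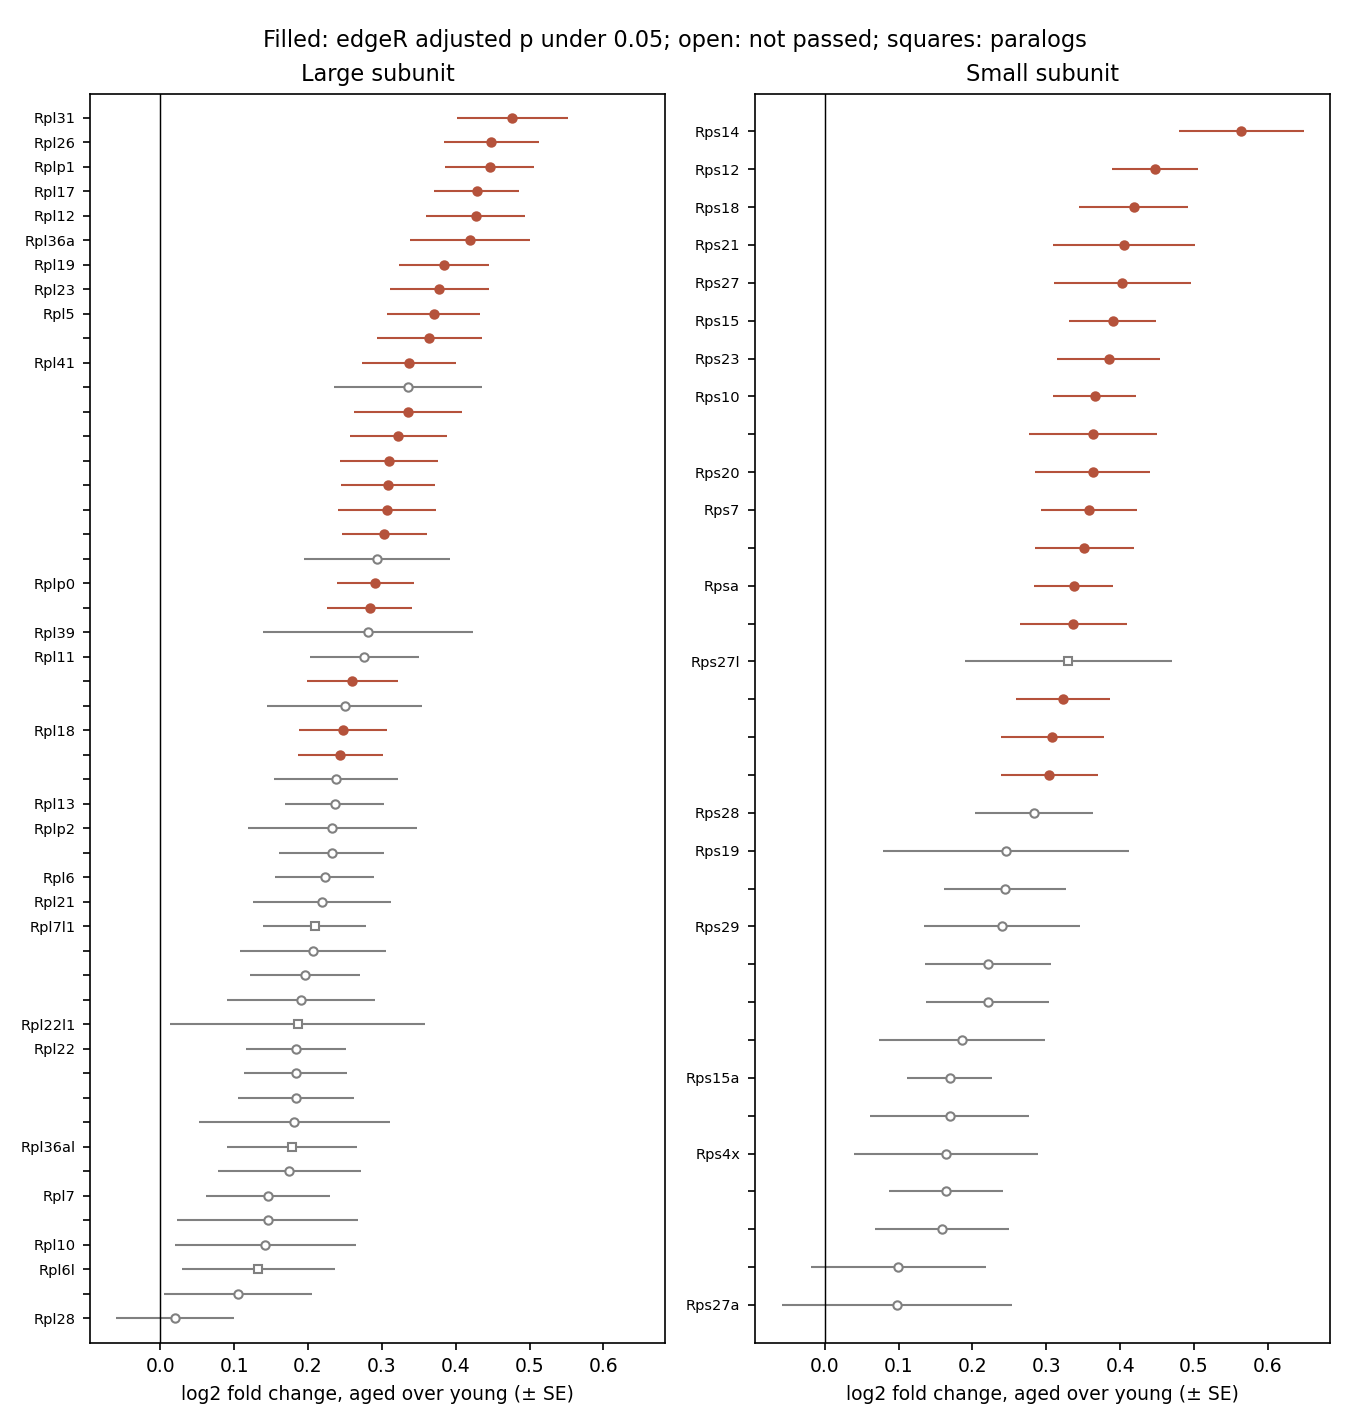
Log2 fold change of aged over young (horizontal axis, point ± SE) for the 50 large and 32 small subunit genes that were tested, with 3 libraries in each group. Filled points passed at an edgeR adjusted p under 0.05, open points did not, and squares are paralogs; rows are labelled for genes named in the text. All 82 points lie above 0, from 0.02 for Rpl28 to 0.56 for Rps14.

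In the small subunit, 17 of 32 genes were higher and 15 did not pass, with a median log2 fold change of 0.32. Rps14, a protein of the small subunit's platform, had the largest change of all members. Its level was 234, 206 and 212 CPM in aged libraries 1, 2 and 3 and 131, 163 and 148 CPM in young libraries 1, 2 and 3. The lowest aged library was above the highest young one, and the log2 fold change was 0.56 ± 0.08 (SE; edgeR adjusted p = 0.0084). Rps12, a protein of the small subunit's beak, had the smallest p. It stood at 117, 120 and 118 CPM in aged and 82.6, 89.2 and 88.5 CPM in young libraries, the aged ones being close together (log2 fold change 0.45 ± 0.06, adjusted p = 0.0051). Rpsa, which also serves as the precursor of the laminin receptor, stood at 608, 589 and 613 CPM in aged and 464, 478 and 493 CPM in young libraries. Its groups were far apart relative to their spread, at a log2 fold change of 0.34 ± 0.05 (adjusted p = 0.010).

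Rps15, a protein of the small subunit's head, stood at 418, 406 and 416 CPM in aged and 296, 332 and 317 CPM in young libraries. Rps10, at the mRNA entry side, stood at 131, 131 and 129 CPM and 97.0, 104 and 102 CPM. Their log2 fold changes were 0.39 ± 0.06 and 0.37 ± 0.06, and in neither gene did the ages overlap. Rps18, Rps7 and Rps23 were higher by 0.42, 0.36 and 0.38 on the log2 scale, Rps23 being a protein of the decoding centre itself. Close to the threshold were Rps21, which passed (0.41 ± 0.10, adjusted p = 0.037), and Rps28, which did not (0.28 ± 0.08, adjusted p = 0.063).

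The small subunit also held members with no clear difference. Rps27a, translated as a fusion with ubiquitin, stood at 88.2, 107 and 80.1 CPM in aged and 85.6, 66.5 and 105 CPM in young libraries. These ranges overlapped almost fully, and the log2 fold change of 0.10 ± 0.16 did not pass (edgeR adjusted p = 0.73).

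In the large subunit, 22 of 50 genes were higher and 28 did not pass, with a median log2 fold change of 0.25. Rpl31, next to the exit of the tunnel through which the new protein leaves, stood at 272, 234 and 257 CPM in aged and 168, 193 and 188 CPM in young libraries. Its aged libraries were all higher, by 0.48 ± 0.08 on the log2 scale (edgeR adjusted p = 0.010). Rpl26, another protein near that exit, stood at 342, 320 and 336 CPM and at 225, 256 and 250 CPM. The change was 0.45 ± 0.06 (adjusted p = 0.0070), and again the ages did not overlap. Rpl17, also at the exit, stood at 263, 257 and 273 CPM in aged and 187, 206 and 196 CPM in young libraries (0.43 ± 0.06, adjusted p = 0.0058). These 3 genes of the exit region were chosen by p and not by position, so their neighbourhood is given as background only.

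Rpl12, a protein at the base of the stalk, stood at 190, 191 and 183 CPM in aged and 128, 140 and 150 CPM in young libraries (0.43 ± 0.07). Rpl5, which binds the 5S ribosomal RNA and, when free, the p53 regulator Mdm2, stood at 243, 222 and 225 CPM and 168, 186 and 180 CPM (0.37 ± 0.06). Both passed, at adjusted p = 0.0099 and 0.014. Rpl11, the partner of Rpl5 on 5S RNA, stood at 159, 189 and 168 CPM in aged and 135, 144 and 147 CPM in young libraries. All its aged libraries were above the young ones, yet it fell just outside the threshold at 0.28 ± 0.07 (adjusted p = 0.052). Rpl19 and Rpl23 were higher by 0.38 each. Rpl18, the last gene inside the threshold (0.25 ± 0.06, adjusted p = 0.039), and Rpl13, just outside it (0.24 ± 0.07, adjusted p = 0.065), had nearly the same change.

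Rpl28 stood at 158, 191 and 160 CPM in aged and 159, 171 and 172 CPM in young libraries. Its groups overlapped fully, and its log2 fold change of 0.02 ± 0.08 was the smallest of the family (adjusted p = 0.90). The stalk, where elongation factors are recruited, is built on Rplp0 with the acidic proteins Rplp1 and Rplp2. Rplp1 stood at 621, 607 and 672 CPM in aged and 452, 482 and 461 CPM in young libraries and was higher by 0.45 ± 0.06 (adjusted p = 0.0059). Rplp0 stood at 254, 263 and 257 CPM and 203, 215 and 214 CPM, a change of 0.29 ± 0.05 (adjusted p = 0.017). Rplp2 stood at 119, 155 and 114 CPM in aged and 99.2, 116 and 115 CPM in young libraries. Here the ages overlapped and the change of 0.23 ± 0.11 did not pass (adjusted p = 0.23).

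Large and small subunit genes were compared library by library. For each gene the log2 CPM was taken relative to its mean over the 6 libraries, and the median over the 31 main genes of the small subunit was set against that over the 46 main genes of the large one. The small subunit median exceeded the large one by 0.0020, 0.052 and 0.036 in aged libraries 1, 2 and 3. In young libraries 1, 2 and 3 the difference was -0.029, -0.025 and 0.011. The means were 0.030 ± 0.026 and -0.014 ± 0.022 (SD, n = 3 each), and the ages overlapped. Between the ages, the median itself moved by 0.27 for the large and 0.31 for the small subunit.

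**Figure D2:**
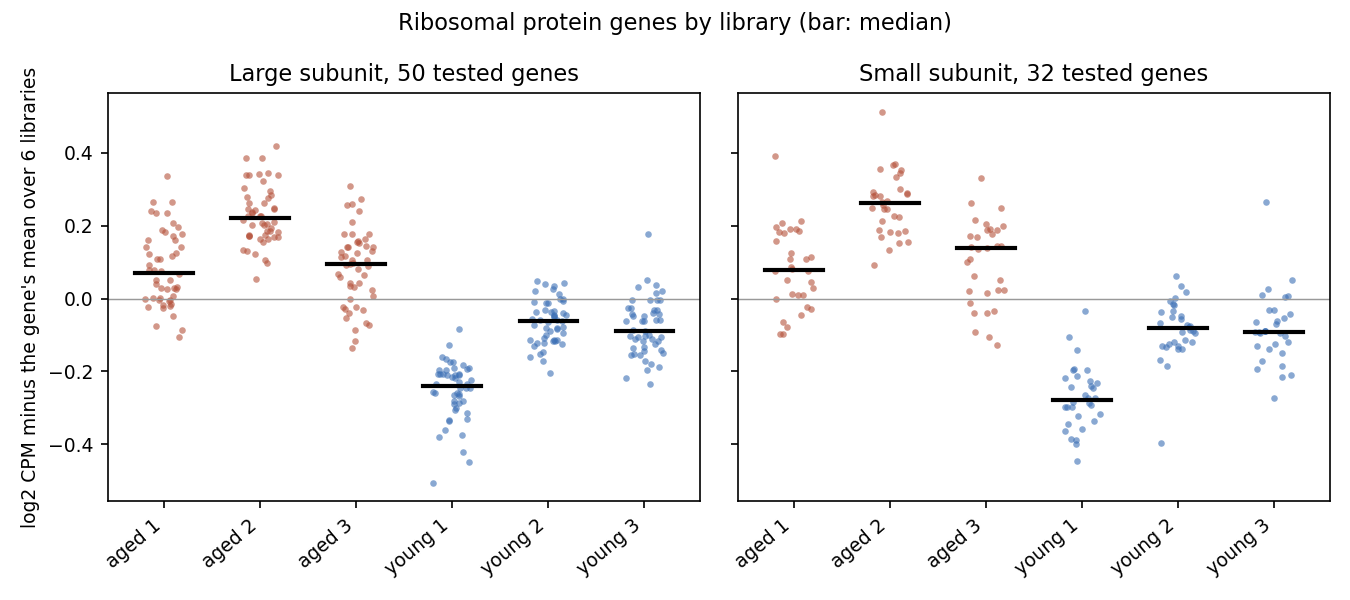
Level of each tested member in each library, as log2 CPM minus the gene's own mean over the 6 libraries (vertical axis), for large (left) and small (right) subunit genes, with aged libraries in red, young ones in blue and a bar at the median. Aged library 2 lies highest and young library 1 lowest in both panels, and the medians over all members run from -0.25 to 0.24.

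The members moved together from library to library, also within an age. Their median relative level was 0.08, 0.24 and 0.11 in aged libraries 1, 2 and 3 and -0.25, -0.07 and -0.09 in young libraries 1, 2 and 3, on the log2 scale. Young library 1 was the lowest of the 6 for 80 of 82 members, and aged library 2 the highest of the 6 for 62. Within its own age, young library 1 was the lowest for 81 members, against 34.1% of all tested genes, and aged library 2 the highest for 62, against 39.6%. The other libraries of each age lay closer together. Across all tested genes the medians were within 0.0055 of 0 in every library. The scaling of the libraries brings that median close to 0, so it is not a separate result.

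The members that passed and those that did not differed in how far aged library 2 stood out. Measured as log2 CPM in aged library 2 minus the mean of aged libraries 1 and 3, its excess had a median of 0.03 over the 39 genes that rose and 0.27 over the 43 that did not. The spread within the aged group enters the test, so this is a description of the calls and not a separate result. Over all members the excess ran from -0.17 for Rpl31 to 0.60 for Rps19, a gene picked out here after its values were seen. Rps19, whose human counterpart is mutated in Diamond-Blackfan anaemia, stood at 85.9, 129 and 85.0 CPM in aged and 69.3, 91.7 and 92.3 CPM in young libraries. In aged libraries 1 and 3 it was thus no higher than in young libraries 2 and 3. Without aged library 2, 78 of the 82 fold changes were above 0, and without young library 1, 81 were.

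Members differed widely in level. Per gene length, the main genes ran from 26.4 FPKM for Rpl22 to 1175 FPKM for Rplp1, a 44.5-fold range with a median of 196 FPKM, while the median of all tested genes was 7.22 FPKM. After Rplp1 came Rpl41, the shortest ribosomal protein, at 741 FPKM and Rps29 at 589 FPKM. The proteins are needed in nearly equal numbers, whereas the mRNA levels measured here were not equal. The scale rests on the annotated length: Rps15a, at 43.1 FPKM, was scaled by 5136 bases and Rps20, at 29.0 FPKM, by 3446, where the members' median is 808. Rpl41 rose by 0.34 ± 0.06 and Rps29, at 0.24 ± 0.11, did not pass (edgeR adjusted p = 0.019 and 0.18). Over the 82 tested members, the fold change had a rank correlation of 0.16 with mean FPKM, 0.07 with coding GC content (81 genes) and -0.03 with gene length, all from the same 6 libraries and given as descriptions.

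Ribosomal protein genes are known for their many processed pseudogenes, copies made from the mRNA. Of the 83 members with a coding sequence in GENCODE vM21, 77 had at least 1 annotated pseudogene with 90% or more identity over 80% or more of the coding sequence. The median was 8 copies, and Rpl21 had the most, with 76. How reads that match several copies were counted is not given in the sources used here, so the level of a member with many copies is uncertain. Rpl21 stood at 52.6, 63.2 and 51.5 CPM in aged and 44.6, 51.5 and 47.7 CPM in young libraries, and its mean of 27.9 FPKM was among the 3 lowest of the main genes. Across 81 tested members the rank correlation of copy number with the fold change was -0.03. Of 10 table rows named as ribosomal pseudogenes or retrocopies, 5 had enough reads to test. Rps27rt, a retrocopy of Rps27, was higher at 101, 57 and 63 reads in aged and 32, 35 and 30 reads in young libraries (log2 fold change 1.14 ± 0.26, edgeR adjusted p = 0.033), a call lost with the gene length trend removed (adjusted p = 0.081), and the other 4 did not pass. Members also differ in what their introns hold: 30 of them carry 58 annotated small nucleolar RNAs, which guide the modification of other RNAs.

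Per gene length the 8 paralogs ran from 0.077 to 74.6 FPKM, below the main genes' median of 196 FPKM, and 0 of the 5 with enough reads passed the test. Rpl3l, known from heart and skeletal muscle, Rpl39l, known from testis, and Rpl32l were the 3 members left out for low counts. Rpl3l had 0.23 to 0.62 CPM, Rpl32l 0.23 to 0.86 CPM and Rpl39l 0 to 0.12 CPM over the 6 libraries. A difference between the ages was not detectable for them at this depth. The other 5 all had log2 fold changes above 0, with a median of 0.19.

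Rpl22l1, which can take the place of Rpl22, stood at 25.4, 35.2 and 24.8 CPM in aged and 19.2, 26.1 and 29.7 CPM in young libraries, and Rpl22 at 62.8, 68.6 and 65.8 CPM and 54.3, 59.7 and 59.6 CPM. The paralog's groups overlapped and those of Rpl22 did not, but neither gene passed (log2 fold changes 0.19 ± 0.17 and 0.18 ± 0.07, edgeR adjusted p = 0.54 and 0.12). Per gene length Rpl22l1 was the more abundant of the pair, at 206% of the FPKM of Rpl22 in both ages. That order rests on lengths of 489 bases for Rpl22l1 and 2343 for Rpl22, and in CPM Rpl22l1 was the less abundant. The log2 ratio of Rpl22l1 to Rpl22, taken on CPM and not scaled to length, was -1.31, -0.97 and -1.41 in aged and -1.50, -1.19 and -1.01 in young libraries. Its mean moved by 0.0049, inside the spread.

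Rpl36al, an intronless copy, and the X-linked Rpl36a were the closest of the pairs compared, with 87.7% of coding bases identical. No coding sequence was found in GENCODE vM21 for Rpl6l and Rpl32l, so their pairs were not compared. Rpl36a stood at 82.7, 85.0 and 89.4 CPM in aged and 56.8, 70.0 and 65.3 CPM in young libraries and rose by 0.42 ± 0.08 (edgeR adjusted p = 0.021). Its ages did not overlap, whereas those of Rpl36al, at 38.3, 44.9 and 39.5 CPM in aged and 34.0, 35.2 and 39.2 CPM in young libraries, did (0.18 ± 0.09, adjusted p = 0.23). The log2 ratio of Rpl36al to Rpl36a was -1.11, -0.92 and -1.18 in aged and -0.74, -0.99 and -0.74 in young libraries. Its mean in aged libraries minus that in young ones was -0.25 (two-sided exact permutation p = 0.2, 0.75 adjusted over the 5 pairs; the smallest p that 3 against 3 allows is 0.1). Rps27l, a p53-responsive copy of Rps27, stood at 7.96, 8.05 and 9.52 CPM in aged and 5.74, 7.47 and 7.06 CPM in young libraries. Those values do not overlap, yet at this low level the change of 0.33 ± 0.14 did not pass (edgeR adjusted p = 0.17). Rps27 itself, at 112, 139 and 125 CPM and 84.6, 102 and 97.7 CPM, rose by 0.40 ± 0.09 (edgeR adjusted p = 0.034).

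These 2 pairs are printed to show how a read can be assigned to one copy or the other. The first 90 coding bases are given from GENCODE vM21 (GRCm38, Rps27l on chromosome 9, Rps27 on 3, Rpl36al on 12 and Rpl36a on X), and capitals mark the bases at which the members of a pair differ.
Rps27l: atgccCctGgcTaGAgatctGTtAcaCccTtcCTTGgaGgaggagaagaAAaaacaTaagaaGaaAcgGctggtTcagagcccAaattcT
Rps27: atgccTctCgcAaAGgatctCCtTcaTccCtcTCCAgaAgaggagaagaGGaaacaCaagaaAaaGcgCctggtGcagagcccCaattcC
Rpl36al: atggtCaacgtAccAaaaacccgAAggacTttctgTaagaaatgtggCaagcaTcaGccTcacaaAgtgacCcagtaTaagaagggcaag
Rpl36a: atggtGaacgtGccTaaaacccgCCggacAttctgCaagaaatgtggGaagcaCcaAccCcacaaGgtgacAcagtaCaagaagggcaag
The Rps27 pair differs at 24 of these 90 bases and at 60 of 252 coding bases, and the Rpl36a pair at 14 of 90 and 39 of 318. The longest run of identical coding bases is 11 in the Rps27 pair and 24 in the Rpl36a pair.

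For the remaining pairs, Rpl7l1, whose protein is known from assembling ribosomes, stood at 44.2, 44.9 and 46.3 CPM in aged and 36.7, 39.6 and 40.7 CPM in young libraries. All aged libraries were higher, but the change of 0.21 ± 0.07 did not pass (edgeR adjusted p = 0.096). Rpl7, at 211, 245 and 218 CPM and 181, 219 and 210 CPM, overlapped between the ages (0.15 ± 0.08, adjusted p = 0.30). Rpl6l stood at 22.8 to 27.7 CPM in aged and 20.2 to 24.1 CPM in young libraries (0.13 ± 0.10, adjusted p = 0.46). Rpl6 stood at 228 to 256 CPM in aged and 192 to 218 CPM in young libraries, with no overlap, and did not pass either (0.22 ± 0.07, adjusted p = 0.076). The exact permutation p of the 5 paralog-to-main ratios ran from 0.2 to 1, but with 3 libraries a group no pair could have passed, so these values do not show that the ratios were alike. The shift of -0.25 for Rpl36al to Rpl36a exceeded the SD within either age (0.13 in aged and 0.15 in young libraries). Shifts of the other pairs were -0.09 to 0.06. That of Rpl6l to Rpl6, at -0.09, also exceeded its SD within either age (0.085 in aged and 0.082 in young libraries).

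**Figure D3:**
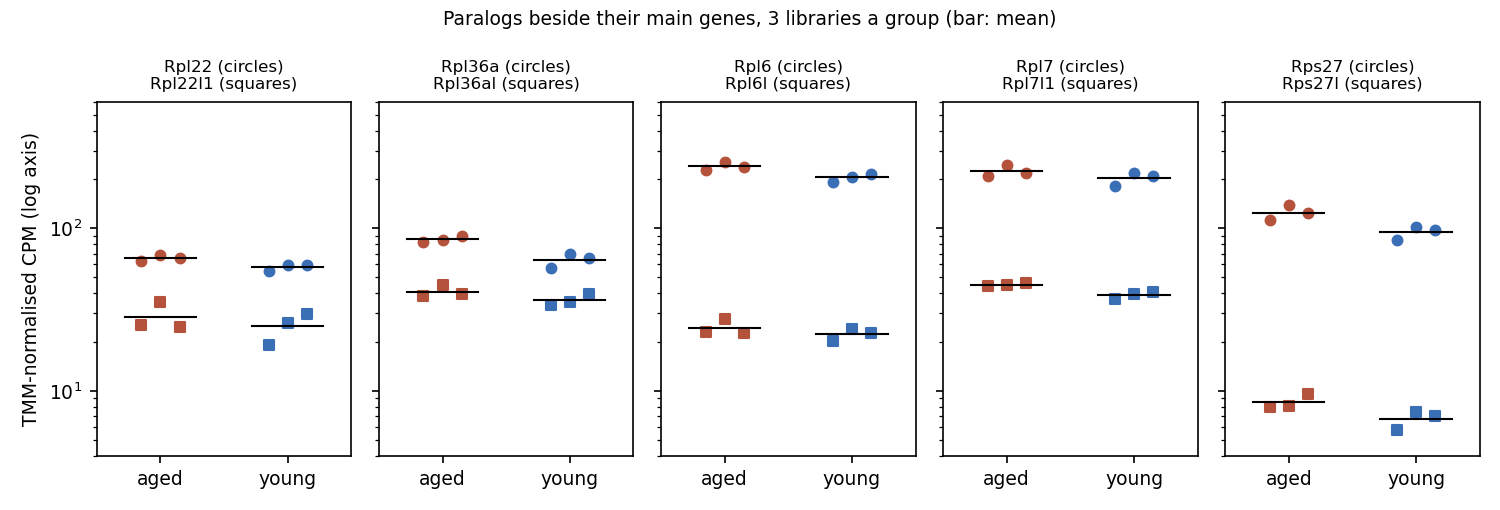
Levels of 5 paralogs (squares) and their main genes (circles) in the 3 aged (red) and 3 young (blue) libraries, as TMM-normalised CPM on a log axis, with a bar at the mean. The scale is not corrected for gene length, so it compares libraries within a gene. Aged and young points do not overlap for Rpl36a, Rps27, Rpl22, Rpl6, Rpl7l1 and Rps27l.

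The X chromosome carries 4 members, Rpl10, Rpl36a, Rpl39 and Rps4x, which matters here because sex and age cannot be told apart. Only Rpl36a rose among these 4. Rpl10, which completes the subunit late in its assembly, stood at 168, 216 and 157 CPM in aged and 142, 172 and 177 CPM in young libraries, with overlap (0.14 ± 0.12, edgeR adjusted p = 0.50). Rps4x stood at 228, 314 and 237 CPM in aged and 201, 249 and 245 CPM in young libraries and overlapped as well (0.16 ± 0.12, adjusted p = 0.44). Rpl39, in the exit tunnel, stood at 42.9, 52.9 and 43.6 CPM and 29.4, 43.0 and 42.3 CPM (0.28 ± 0.14, adjusted p = 0.24). The 78 tested members on autosomes included 38 that were higher when X- and Y-linked genes were left out of the fit, where 3.13% of all genes were higher.

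Gene length moved with the result. Members are short, with a median of 808 bases against 3693 over all tested genes, and short genes were in general higher in the aged libraries. In the shortest of 10 length classes of equal size, 206 to 1427 bases, the 1405 genes that are not members had a median log2 fold change of 0.10 and 5.05% of them were higher. The 66 members of that class had a median of 0.27, and 30 of them were higher. In the longest class the median was -0.12. Among the 9 members in the next class, 1427 to 2014 bases, 6 were higher and the median was 0.28, against 0.06 for the others. Rps15a, at 5136 bases the 1 member above the tested median, had a log2 fold change of 0.17 ± 0.06, which did not pass (edgeR adjusted p = 0.10).

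When the trend of log counts on gene length was removed from each library, 20 members were still higher and 0 lower, where 2.79% of all genes were higher. Of the 82 fold changes, 76 stayed above 0, as did 50.1% of those of all tested genes, and the median was 0.16. The trend removed was 0.03, 0.13 and 0.02 at the members' lengths in aged libraries 1, 2 and 3 and -0.14, -0.03 and -0.01 in young libraries 1, 2 and 3. It was thus highest in aged library 2 and lowest in young library 1, the libraries in which the members were highest and lowest. With the trend removed, 10 large and 10 small subunit genes were higher. Rps14 was at 0.42, Rpl31 at 0.38, Rps12 at 0.33 and Rpl17 at 0.34, all still past the threshold. Rplp1 at 0.28, Rps10 at 0.22 and Rpl36a at 0.26 no longer passed (edgeR adjusted p = 0.074, 0.066 and 0.069). The change of 6 members fell below 0, and Rpl28 was the lowest at -0.15.

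**Figure D4:**
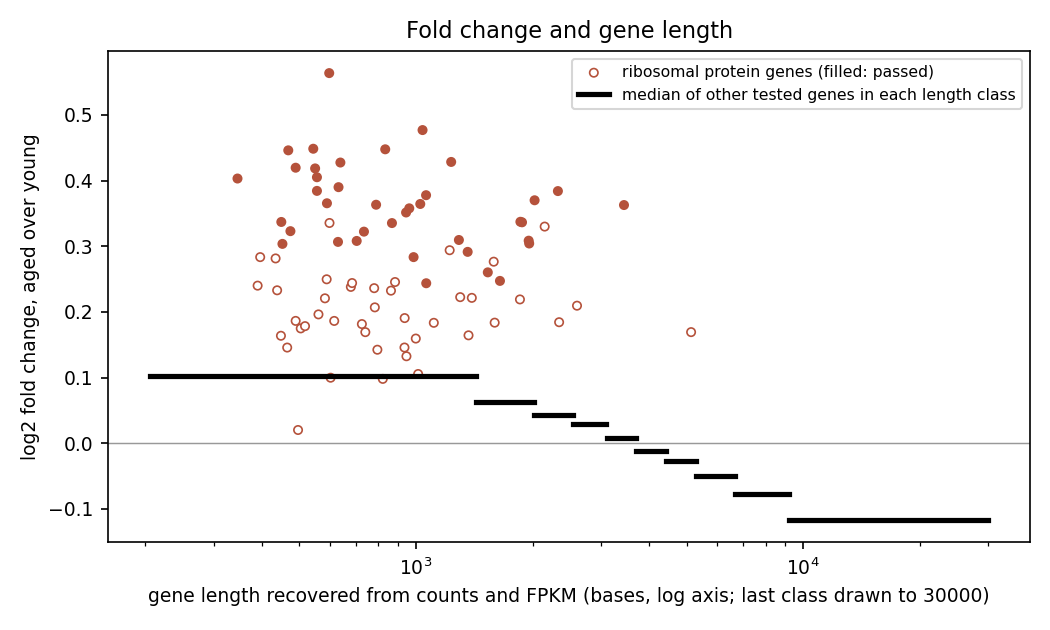
Log2 fold change of aged over young (vertical axis) against gene length in bases (log axis). Circles are the 82 tested members, filled where they passed, and black bars are the medians of the other tested genes in 10 length classes of equal size. The bars fall from 0.10 in the shortest to -0.12 in the longest class, and most members lie above the bar at their length.

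Genes that work with the ribosome were looked at from lists that hold no member. Of 21 genes for translation elongation and other TOP mRNAs, 3 were higher, 0 lower and 18 did not pass. All 21 fold changes were above 0, with a median of 0.14; with the length trend removed 20 were, with a median of 0.12. Rack1, a scaffold on the small subunit, averaged 246 ± 2.71 CPM in the aged group against 190 ± 16.7 CPM in the young group (SD over 3 libraries each) and rose by 0.37 ± 0.07 on the log2 scale (edgeR adjusted p = 0.019). Eef1a1, the factor that delivers aminoacyl-tRNA, averaged 3468 ± 53.3 CPM against 2908 ± 121 CPM and rose by 0.25 ± 0.06 (adjusted p = 0.030), a call lost with the length trend removed (adjusted p = 0.069). Fau, whose product yields the small subunit protein eS30, did not pass at 0.26 ± 0.10 (edgeR adjusted p = 0.15). Eef2, which moves the ribosome along the mRNA, was at 0.02 ± 0.05 and Eef1g, a subunit of the complex that recharges Eef1a1, at 0.02 ± 0.11. Neither passed, nor did the nuclear chaperone Npm1 at 0.18 ± 0.07 or the poly(A)-binding Pabpc1 at 0.13 ± 0.06.

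The counts for genes that build ribosomes or control TOP mRNAs stand beside those of all tested genes, of which 3.22% were higher and 26.2% had an unadjusted p under 0.05 in either direction. Of 40 ribosome biogenesis factors, 1 was higher (Nop53, a factor of large subunit assembly, 0.25 ± 0.06, edgeR adjusted p = 0.046, and 0.11 with the length trend removed) and 39 did not pass (12 at an unadjusted p under 0.05 in all), with a median of 0.12. The 15 tested genes of RNA polymerase I and its factors, which make the ribosomal RNA precursor, included 0 that passed (2 at an unadjusted p under 0.05) and had a median of 0.05. The 20 genes that control the translation of TOP mRNAs also included 0 that passed (5 at an unadjusted p under 0.05), with a median of 0.05. Of 14 tested genes of ribosomal stress and rescue, 1 was higher, the p53 target and cell cycle inhibitor Cdkn1a. It averaged 29.2 ± 8.56 CPM in the aged group against 9.06 ± 0.936 CPM in the young group (SD over 3 libraries each), a log2 fold change of 1.68 ± 0.21 (edgeR adjusted p = 0.0044), while Trp53 itself was at 0.14 ± 0.07 and did not pass.

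The ribosome of mitochondria is a separate particle with its own nuclear-encoded proteins. Of its 78 genes 3 were higher, 0 lower and 75 did not pass, with a median of 0.05. The genes that rose were Mrps6 (0.53 ± 0.11), Mrpl20 (0.41 ± 0.07) and Mrpl11 (0.32 ± 0.07), at edgeR adjusted p = 0.028, 0.015 and 0.031, and with the length trend removed Mrps6 no longer passed (adjusted p = 0.068). The 3.85% of this list that rose is near the 3.22% of all genes, and 47.6% of the tested cytosolic members rose. The mitochondrial genes are short as well, with a median of 1412.5 bases, and with the length trend removed their median was -0.01 and that of the cytosolic members 0.16. The difference between the lists was described and not tested.

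**Figure D5:**
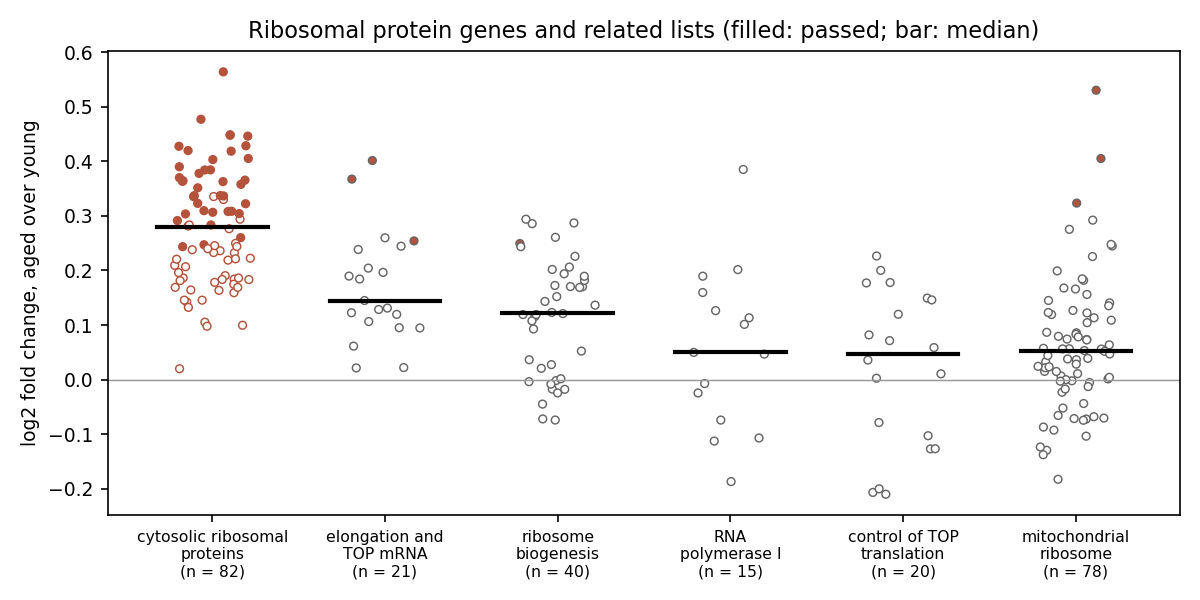
Log2 fold change of aged over young (vertical axis) for each tested gene of the cytosolic ribosomal proteins and 5 related lists, filled where the edgeR adjusted p was under 0.05, with a bar at the median. The medians are 0.28 for the cytosolic ribosomal proteins, 0.14 for elongation and TOP mRNA genes, 0.12 for biogenesis factors and 0.05 for each of the other 3 lists.

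Markers of several cell types moved with age beside these genes, and their part in the result was not tested. Summed levels of 12 microglial markers were 443 to 491 CPM in aged and 387 to 406 CPM in young libraries (5 higher and 1 lower of 12). Those of 7 tanycyte markers, the glia that line the third ventricle, were 159 to 182 and 82.9 to 131 CPM (4 higher of 7). Those of 10 endothelial markers were 377 to 434 and 310 to 375 CPM, but 7 of the 10 fold changes were below 0 (median -0.05, 1 higher and 3 lower past the test). The glucose transporter gene Slc2a1, singled out after its values were seen, averaged 206 CPM in aged and 112 CPM in young mice, and without it the endothelial sums overlapped, at 184 to 214 and 207 to 252 CPM. Sums were lower in aged libraries for 10 astrocyte markers (3036 to 4084 against 4457 to 4668 CPM), 8 markers of oligodendrocyte precursors (396 to 474 against 531 to 618 CPM), 8 of pericytes and smooth muscle (154 to 189 against 221 to 256 CPM) and 8 of fibroblasts and meninges (55.4 to 64.4 against 79.0 to 89.8 CPM). None of these ranges over whole lists overlapped. Sums for neurons, oligodendrocytes, ependyma, choroid plexus, red blood cells and the pituitary overlapped between the ages. Markers of neighbouring brain regions were lower in the aged libraries gene by gene, although their sums overlapped. All 9 tested markers of telencephalic glutamatergic neurons had a fold change below 0 (median -0.66, 3 lower past the test). Their median relative level was -0.32 to -0.23 in aged and -0.13 to 0.97 in young libraries, on the log2 scale. For neurons of the thalamus and habenula, 7 of 9 fold changes were below 0 (median -0.72, 2 lower past the test), with median relative levels of -0.40 to -0.27 in aged and -0.09 to 0.63 in young libraries. Young library 1, the lowest of the 6 for 80 of 82 members, also stood apart in marker lists. Its median relative level of tanycyte markers was the lowest, at -0.77, against 0.02 and -0.32 in young libraries 2 and 3. Other lists were highest there, among them astrocytes (0.22), oligodendrocytes (0.23) and pericytes and smooth muscle (0.34). Whether this goes with the low member levels of that library was not tested. No marker was at 0 in all 6 libraries.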

How the data were processed

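Whole-number read counts per gene were deposited for 18228 genes in 6 libraries, which the authors had not normalized. FPKM values, also deposited, are the same counts over gene length and library total, within a relative tolerance of 1e-06 for all 18228 genes, which gave the gene lengths. Per the submitters' processing notes, the build was GRCm39 and the tools were DESeq, HTSeq, Cufflinks, HISAT2 and Trimmomatic; no versions or roles are given. A stranded poly(A) kit was used, per the labels' protocols. The annotation, the strand setting and the handling of reads with several matches were not given in the sources used here.

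Aged was tested against young with edgeR 4.0.16 (quasi-likelihood test, R 4.3.3) on the 14702 genes kept by filterByExpr (minimum count 10, minimum total 15), with TMM scaling, no covariate and Benjamini-Hochberg adjustment over all of them. Levels are CPM over TMM-scaled library sizes; fold changes are log2, with a standard error (SE) derived from the test. Each library is from a separate mouse. Replicates differed by more than sampling noise (chi-square over degrees of freedom of 4.04 to 12.1), and the biological coefficient of variation was 8.52%. The test was first run on simulated counts with known changes in genes drawn at random from all tested genes. It recovered 28% of 1.3-fold, 60% of 1.5-fold and 94% of 2-fold changes, and 6.67% of its calls were false. Genes that did not pass are therefore not shown to be unchanged.

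Paralog-to-main ratios were tested by exact permutation over libraries. Coding sequences, chromosomes and pseudogenes came from GENCODE vM21 (GRCm38) and promoters from RefSeq (GRCm38.p6); pseudogenes were matched with blastn. As these builds differ from that of the files, coordinates are given for the promoter windows alone. The members and lists were chosen with earlier results of these data known. Eligible for naming were each paralog and its main gene, in each subunit the 8 members with the smallest p, the 3 with the largest p and 3 on each side of the threshold, the 3 with the highest and lowest FPKM, X-linked and untested members, and of each related list up to 4 genes with the smallest p and any gene of the TOP list. Others were chosen after their values were seen: the other stalk proteins, Rps19, Rps15a, Rps20, Rpl21 and Rps27rt. Some qualifying genes were left unreported. The alternatives comprised other scalings, filters, tools and pseudocounts, removal of a loess trend (span 0.4) of log counts on gene length, the replicate block, omission of X- and Y-linked genes and of each library in turn.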

Additional observations from a re-analysis of the deposited data

How the results depend on the processing

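Of 19 alternatives, none made a member lower past the threshold. With other scalings, filters and tools, 38 to 45 members were higher (45 with DESeq2 1.42.0, 39 with limma-voom, 38 on log2(FPKM + 1)). The split of all calls moved: 474 higher and 535 lower became 627 and 446 with scaling by total counts, 616 and 293 on log2(FPKM + 1) and 622 and 303 on log2(FPKM + 0.1). With the length trend removed, 20 members, 10 large and 10 small subunit genes, were higher at a median of 0.164, and with the replicate block added 22, 11 and 11 at 0.163. With 1 library left out, 7 to 37 members were higher, 4 to 22 of the large and 3 to 15 of the small subunit, and 150 to 1633 genes in all, against 1009; the median of the members ran from 0.22 to 0.32. Replicate numbers do not pair the libraries (same-number correlations of deviations 0.095, 0.037 and -0.14, and not every library correlated best with its own number); with the replicate as a block, 46 members and 523 genes in all were higher. Of the 39 members that rose, 5 (Rpl12, Rpl17, Rpl26, Rps12 and Rps14) passed in all 19 alternatives, 21 missed in 1 to 5 and 13 in 6 or 7.

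Signs turned in these results, none of which passed in the reported fit. With the length trend removed, the change of the ratio of Rpl22l1 to Rpl22 was -0.12 (-0.13 to 0.12 with 1 library left out) and that of Rps27l to Rps27 was 0.086 (-0.15 to 0.048). With the length trend removed, and in brackets also with the replicate block, the log2 fold change was -0.050 (-0.058) for Eef1g, -0.15 (-0.15) for Rpl28 and -0.029 (-0.013) for Rps27a. With 1 library left out, it ran from -0.12 to 0.11 for Eef1g, -0.018 to 0.18 for Eif3f, -0.0093 to 0.11 for Hnrnpa1, -0.062 to 0.075 for Rpl28 and -0.049 to 0.28 for Rps27a. The cause was not tested. Library totals differed by little, so depth bears mainly on the low paralogs.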
